A study of Mus musculus with 186 samples.

Results

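Genes that encode 10 regulators of G protein signalling were followed through 6 brain regions of Akap11 mutant mice. They are Rgs2, Rgs4, Rgs7, Rgs8, Rgs9, Rgs10, Rgs14, Rgs16, Rgs17 and Rgs20, chosen by name, and 10 of 10 were found among the 28338 gene symbols of the count table. The mice were wild type (WT), Akap11 +/- (HET) or Akap11 -/- (KO), and were 4 or 12 weeks old. Bulk RNA was sequenced from pieces dissected from frozen brain: striatum (STR), thalamus (TH), hippocampus (HP), substantia nigra (SN) and, of the cortex, a prefrontal (PFC) and a somatosensory (SSC) piece. Each combination of region, age and genotype held 5 libraries, or 6 in 6 of the 36 groups, which gave 96 libraries at 4 weeks and 90 at 12 weeks. The sources used here do not state strain, sex or how the allele was made, and name no treatment. The labels give each library a number but do not state whether a number marks 1 animal across regions, so p-values measure the spread between these libraries.

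A receptor of the G protein coupled class acts by loading GTP onto a G alpha subunit. Regulators of G protein signalling (RGS proteins) speed the hydrolysis of that GTP, which ends the signal of both the alpha subunit and the freed beta-gamma dimer. They fall into subfamilies by the parts that surround the shared RGS domain. The small R4 proteins RGS2, RGS4, RGS8 and RGS16 hold little else. The R7 proteins RGS7 and RGS9 are obligate partners of the G beta 5 subunit and are held at membranes by R7BP or at GPR158. RGS10 and RGS14 belong to the R12 subfamily, and RGS17 and RGS20 to the RZ subfamily, which acts on the G alpha i and z class. In the striatum, RGS9 and RGS4 are known regulators of dopamine, opioid and muscarinic receptor signalling. AKAP11, the product of the mutated gene, anchors protein kinase A (PKA), the kinase that cAMP activates downstream of G alpha s and G alpha olf.

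On GRCm38 (mm10), with GENCODE M21 coordinates, 6 of the 10 genes lie on chromosome 1. Of the R4 genes, Rgs2 (chr1:143999338-144004161, minus strand) and Rgs4 (chr1:169741477-169747642, minus) stand apart. Rgs8 (chr1:153653025-153700323, plus) and Rgs16 (chr1:153740349-153745468, plus) are close neighbours on the same strand. Rgs7 (chr1:175059087-175492500, minus) and Rgs20 (chr1:4909576-5070285, minus) complete that chromosome. Rgs9 is at chr11:109225355-109298129 (minus), Rgs10 at chr7:128373621-128418758 (minus), Rgs14 at chr13:55369732-55384687 (plus) and Rgs17 at chr10:5825663-5922400 (minus). All are protein-coding. In this annotation exons of Rgs8, Rgs16 and Rgs20 overlap an exon of a gene on the opposite strand, namely Gm29529, Gm28513 and, for Rgs20, Atp6v1h and Gm17101. The library kit keeps strand, but for the counting step a strand setting was not stated in these sources, so values of these 3 genes are uncertain to that extent.

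In the KO striatum at 12 weeks 3 of 10 members differed from WT (adjusted p under 0.05), as did 4.42% of all genes tested. At 4 weeks 0 of 10 did, against 3.35% of genes. The stretch before the start sites of those 3 is shown because PKA signals to the nucleus through CREB, which binds the cAMP response element. The 250 bases before the RefSeq start (GRCm38.p6) are printed 5′ to 3′ in the direction of transcription, with each TGACG or its complement CGTCA, the core of that element on either strand, in capitals. They lie at chr1:144004150-144004399 for Rgs2, chr1:169747643-169747892 for Rgs4 and chr11:109298182-109298431 for Rgs9, all on the minus strand.
Rgs2: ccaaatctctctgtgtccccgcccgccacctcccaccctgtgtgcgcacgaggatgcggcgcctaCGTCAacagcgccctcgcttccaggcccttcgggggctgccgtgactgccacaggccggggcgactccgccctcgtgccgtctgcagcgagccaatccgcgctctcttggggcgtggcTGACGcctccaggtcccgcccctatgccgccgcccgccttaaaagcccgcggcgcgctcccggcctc
Rgs4: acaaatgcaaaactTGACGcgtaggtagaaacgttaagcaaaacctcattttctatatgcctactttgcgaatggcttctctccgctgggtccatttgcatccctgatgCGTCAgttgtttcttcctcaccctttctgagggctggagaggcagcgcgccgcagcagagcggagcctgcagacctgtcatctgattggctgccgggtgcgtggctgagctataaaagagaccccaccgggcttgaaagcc
Rgs9: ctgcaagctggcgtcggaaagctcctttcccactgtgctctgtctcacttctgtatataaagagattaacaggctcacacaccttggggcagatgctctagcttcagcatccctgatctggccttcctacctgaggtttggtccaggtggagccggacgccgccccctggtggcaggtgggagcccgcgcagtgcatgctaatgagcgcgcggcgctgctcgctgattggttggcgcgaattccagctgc

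The Rgs2 stretch holds the core 2 times, its first bases 185 and 67 bases before the start. The Rgs4 stretch also holds it 2 times, at 236 and 141 bases, and the Rgs9 stretch holds 0. Among all 32851 promoter windows of that length in the table, 17.8% held the core at least once and 3.9% at least 2 times. Of the members, 8 had a window (10 windows in all, Rgs8 having several), and 3 held the core: Rgs2, Rgs4 and Rgs8, the last 1 time, 46 bases before 1 of its starts. The palindrome TGACGTCA, present in 1.55% of windows, was found before 0 of the members. Rgs14 and Rgs20 were not matched. These are letter matches in a short window and say nothing of binding.

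Library totals ranged from 20.8 to 73.3 M expected counts (mean 46.1 ± 9.6, SD, n = 186). Akap11 was lower in KO than in WT in all 12 region and age sets, by a log2 fold change of -3.65 to -4.30, each called. In HET it was -0.69 to -0.99 and was called in 10 of 12, the exceptions being HP at 4 weeks (adjusted p = 0.273) and SN at 4 weeks (0.548). An SN library labelled WT at 4 weeks, replicate 92, matched no genotype on Akap11. Its Akap11 was at 44.8 CPM (counts per M, scaled over all libraries), outside the range of each genotype. The other 5 held 197 to 245, HET 97.8 to 139 and KO 13.5 to 15.9. Its oligodendrocyte score, the mean log2(CPM + 1) of 7 genes, was 12.58, against 10.84 to 11.49 in the other 5. The WT libraries numbered 92 from the other regions at 4 weeks held 242 to 385 CPM of Akap11. Marker genes matched the labelled region in most STR, TH and SN libraries. The labels of PFC, SSC and HP were not checked in this way. The striatal projection neuron score, the mean log2(CPM + 1) of 8 genes, was at least 8.91 in all 30 STR libraries and at most 6.99 elsewhere. The thalamic score of 7 genes was above every other library in 29 of 31 TH libraries. The 2 exceptions, WT replicates 913 and 914 at 4 weeks with 7.81 and 7.91, lay below an SN library (WT replicate 42 at 4 weeks, 7.94). Dopamine neuron genes were highest in SN in 32 of 32 libraries, but the lowest SN value (2.02, the same replicate 42) hardly exceeded the highest elsewhere (1.90, TH WT 913). A few libraries of STR, TH and SN at 4 weeks stand apart on such scores or on Akap11 (4 of STR, 3 of TH and 4 of SN). In STR they are KO 51, 161 and 163 and WT 92. In TH they are WT 23, 913 and 914, and in SN WT 42 and 92 and KO 44 and 91. Without them the TH WT group holds replicates 42, 92 and 142 only. TH WT 23 had a thalamic score of 8.74 (8.71 to 9.06 in those kept) and a dopamine neuron score of 1.13 (0.61 to 0.64). SN KO 44 had a dopamine neuron score of 3.35 (6.57 to 7.35 in the KO libraries kept). Results that rest on the libraries that stand apart are given with and without them where a fit without them was made. SSC and HP libraries with high striatal or thalamic scores, described below, were not among those left out.

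In WT brain the members had distinct regional patterns. STR held the highest mean level of 6 of the 10 members at 4 weeks and of 5 at 12 weeks, and the highest region was the same at both ages for 7 members. The libraries of the highest region lay clear of those of the next region for 3 members at 4 weeks and for 4 at 12 weeks, and for 14.9% and 29.5% of all genes tested. Per kilobase of the longest coding transcript, Rgs4 ranked first in PFC, SSC, STR and TH at both ages, with 495 CPM per kb in STR at 12 weeks. Rgs9 came second there at 228, followed by Rgs2 at 64.9.

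**Figure D1:**
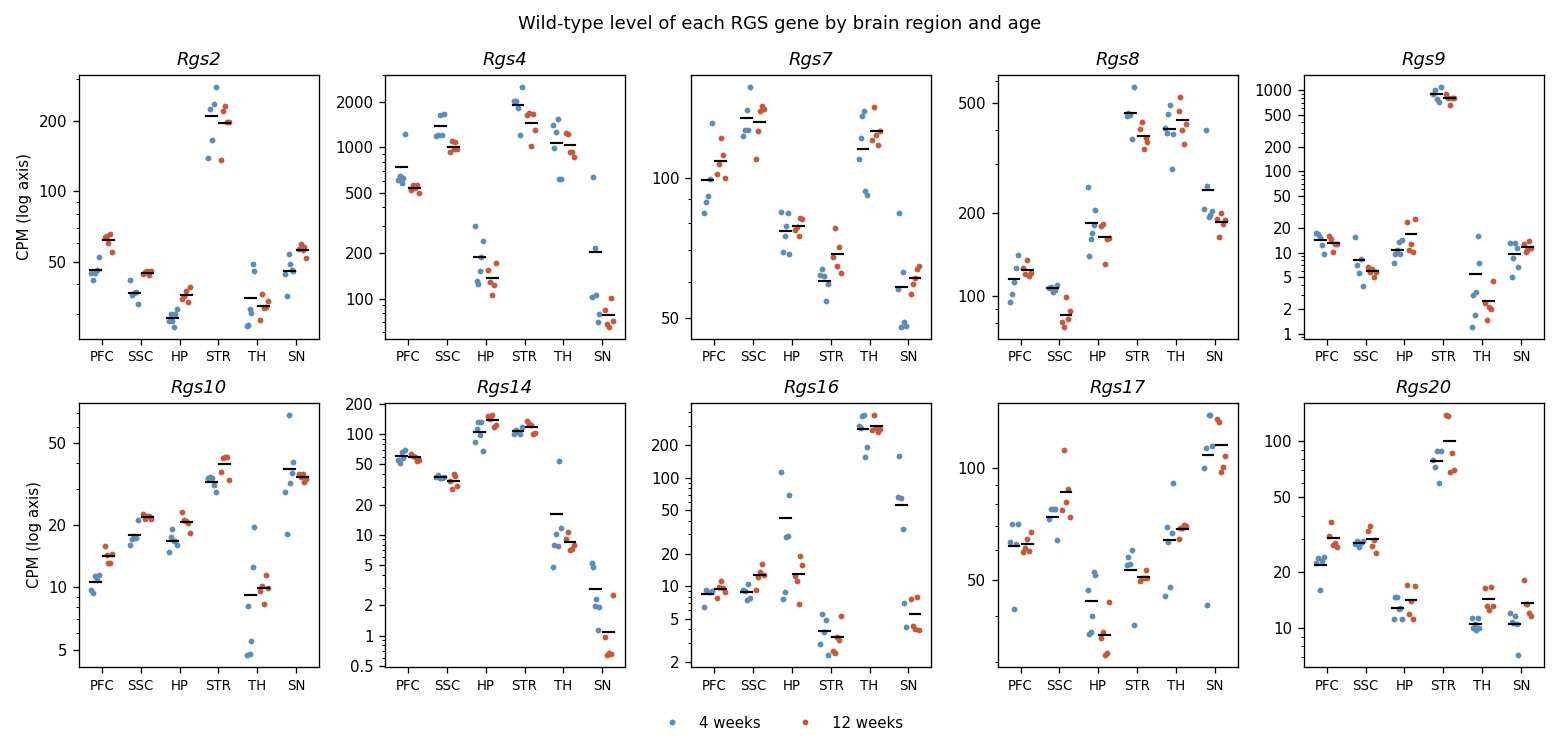
CPM of each member (log axis, a range of its own in each panel) in WT libraries, by region, with 4 weeks in blue and 12 weeks in red; black bars are means. Rgs9 stands apart in STR and Rgs16 in TH at 12 weeks, while Rgs7 and Rgs17 span a narrow range across regions.

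Rgs9, the R7 member long known from striatum and retina, showed the sharpest pattern. At 12 weeks its level was 791 ± 80.3 CPM in STR (SD, n = 5 in this and each group at 12 weeks), 16.8 ± 7.54 in HP, 13.2 ± 2.19 in PFC, 11.8 ± 1.56 in SN, 5.89 ± 0.68 in SSC and 2.5 ± 1.16 in TH. At 4 weeks it was 898 ± 157 CPM in STR and between 5.42 ± 5.56 (TH, n = 6) and 14.4 ± 3.33 (PFC, n = 5) elsewhere. STR exceeded the mean of the other 5 regions by 6.64 ± 0.27 (log2, SE) at 4 weeks (adjusted p = 4.6e-19) and 6.6 ± 0.13 at 12 weeks (3.5e-26). HP, PFC and SN overlapped one another at both ages. In 3 SSC libraries Rgs9 was far above the rest: HET replicates 93 (107 CPM) and 162 (47.3) at 4 weeks and HET replicate 5 (51.7) at 12 weeks, against at most 15.5 in the other SSC libraries. The striatal score was 6.99, 6.13 and 6.05 in those libraries and at most 4.94 in the other SSC libraries.

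Rgs7, the other R7 member, varied little. Its mean at 12 weeks was 132 ± 14.1 CPM in SSC, 126 ± 9.26 in TH and 109 ± 8.75 in PFC, and these 3 overlapped. HP (79.0 ± 2.99), STR (68.9 ± 6.16) and SN (61.1 ± 3.45) followed below them without overlap with PFC. At 4 weeks the order was the same, from 135 ± 13.9 in SSC to 58.4 ± 14 in SN.

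Among the R4 genes, Rgs2, which favours G alpha q and is itself induced by neuronal activity, had its highest level in STR. At 12 weeks it stood at 196 ± 36.7 CPM in STR, 61.8 ± 4.22 in PFC, 56.3 ± 2.83 in SN, 45 ± 0.828 in SSC, 36.1 ± 2.17 in HP and 32.5 ± 3.02 in TH. The lowest STR library (136) was above the highest library of any other region. At 4 weeks STR was again clear of the rest, 209 ± 56.5 against 28.9 ± 1.8 (HP, n = 6) to 46.0 ± 3.97 CPM (PFC). STR was above the other regions' mean by 2.49 ± 0.10 at 4 weeks (adjusted p = 4.0e-19) and 2.14 ± 0.06 at 12 weeks (4.7e-23).

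Rgs4, which acts on G alpha i and q, was abundant in 4 regions and low in 2. At 12 weeks its mean was 1456 ± 290.0 CPM in STR, 1041 ± 185 in TH and 1012 ± 77.2 in SSC, which overlapped, then 536 ± 26.3 in PFC, 137 ± 26.7 in HP and 77.6 ± 14.8 in SN, each clear of the next. At 4 weeks STR (1918 ± 473), SSC (1379 ± 245), TH (1075 ± 397), PFC (736 ± 269.9), SN (202 ± 220.2) and HP (189.7 ± 68.9) each overlapped the next. The SN spread at 4 weeks came from WT replicate 42, at 639 CPM against 70.3 to 215 in the other 5, the library whose thalamic score was 7.94. STR was higher than the other regions by 1.88 ± 0.29 at 4 weeks and 2.03 ± 0.09 at 12 weeks, and SN lower by -2.06 ± 0.36 and -3.06 ± 0.13. Without the libraries that stand apart the 4-week values were 2.06 in STR and -3.3 in SN.

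Rgs8, known to speed the opening and closing of GIRK potassium channels, was shared between TH (432 ± 66.1 CPM at 12 weeks) and STR (380.3 ± 33.3), which overlapped. SN (185 ± 13.4), HP (163 ± 20.4) and PFC (124 ± 6.88) followed, and SSC was lowest at 85.8 ± 8.56. At 4 weeks STR (459 ± 72.3) and TH (402 ± 69.3) were again the highest and SSC (107 ± 2.45) again the lowest.

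Rgs16 was a thalamic gene in these data. At 12 weeks it reached 296 ± 44.3 CPM in TH and 13 ± 4.61 in HP, 12.8 ± 2.51 in SSC, 9.45 ± 1.21 in PFC, 5.56 ± 2.01 in SN and 3.37 ± 1.14 in STR. TH exceeded the mean of the other regions by 5.23 ± 0.13 (adjusted p = 9.2e-24). At 4 weeks TH was at 280.3 ± 91.2 CPM (n = 6), and SN (55.6 ± 56.5, n = 6) and HP (42.6 ± 40.9, n = 6) spread widely. The 6 SN libraries held 157 CPM (replicate 42), 65.8 (23), 65.5 (92), 33.8 (142), 7.02 (913) and 4.23 (914). Their thalamic scores were, in the same order, 7.94, 6.17, 5.71, 5.65, 4.68 and 4.28. In HP the highest values, 113 CPM in WT replicate 23 and 69.0 in WT replicate 914, stood in the libraries with the highest thalamic scores, 6.99 and 6.64. The SN level of Rgs16 was called higher than the other regions at 4 weeks (1.43 ± 0.41, adjusted p = 0.00337), but not without replicate 42 (0.74, 0.13) nor without the libraries that stand apart (0.38, 0.521). It was called lower at 12 weeks (-1.64 ± 0.19, 1.2e-08).

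**Figure D2:**
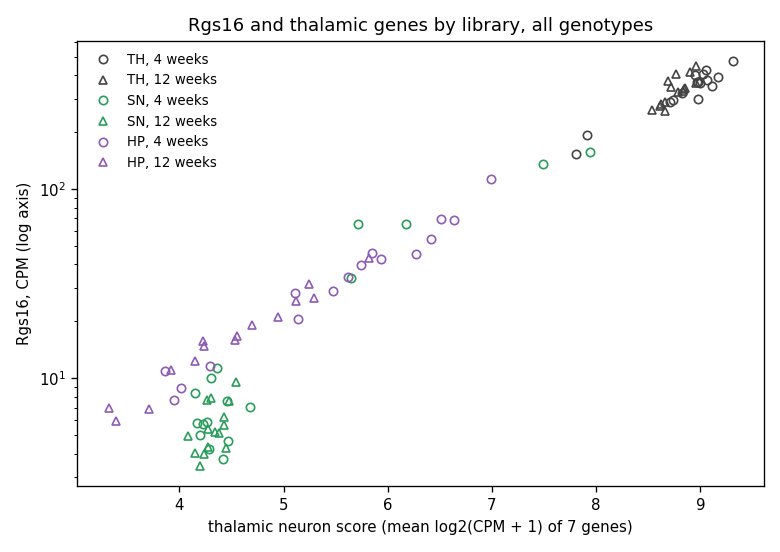
Rgs16 CPM (log axis) against the thalamic neuron score, the mean log2(CPM + 1) of 7 genes that leaves out Rgs16, for each TH (grey), SN (green) and HP (purple) library of all genotypes, with circles for 4 weeks and triangles for 12 weeks. The TH libraries lie at the top right, and the SN and HP libraries with the highest Rgs16 are those with the highest thalamic scores.

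Of the R12 genes, Rgs14, a scaffold that also binds Ras and marks hippocampal area CA2, was high in HP and STR and lowest in SN. At 12 weeks it was 138 ± 17.4 CPM in HP and 117 ± 15.6 in STR, which overlapped, 58.7 ± 3.96 in PFC, 34.5 ± 4.97 in SSC, 8.40 ± 1.43 in TH and 1.09 ± 0.809 in SN. At 4 weeks STR (107 ± 7.3) and HP (104 ± 25.7) were the highest and SN (2.91 ± 1.72) the lowest. HP exceeded the other regions by 2.00 ± 0.26 and 2.91 ± 0.12 at the 2 ages, and SN was lower by -4.20 ± 0.41 and -5.58 ± 0.22. One TH library at 4 weeks, WT replicate 913, held 53.6 CPM against 4.80 to 11.8 in the other 5, and its cortical and hippocampal excitatory score was 5.72 against 2.61 to 3.43. Rgs10, a short protein abundant in microglia and also made by neurons, was highest in STR (39.3 ± 4.35) and SN (34.2 ± 1.29) at 12 weeks and lowest in TH (9.91 ± 1.16), with SSC (22.0 ± 0.454), HP (20.8 ± 1.68) and PFC (14.2 ± 1.19) between. At 4 weeks SN (37.2 ± 17) and STR (32.5 ± 2.2) led, overlapping, and TH was again lowest (9.22 ± 5.94). Which of them ranked first at 4 weeks rested on single libraries. SN WT replicate 92 held 68.3 CPM. Its Akap11 matched no genotype, and its oligodendrocyte score of 12.58 was the highest of the SN WT libraries. Without that library SN was at 31 ± 8.39 (n = 5), below STR. STR then ranked first for 7 members, and 8 had the same highest region at both ages. Without all the libraries that stand apart SN was at 34.2 ± 5.05 (n = 4) against 32 ± 2.29 in STR (n = 4).

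The RZ genes differed from each other. Rgs20 was highest in STR, at 99.5 ± 34.8 CPM at 12 weeks against 30.3 ± 4.08 in PFC, 30.1 ± 3.99 in SSC and 13.7 ± 2.6 to 14.4 ± 1.98 in SN, HP and TH. At 4 weeks it was 78.1 ± 12.0 in STR and 10.5 ± 1.72 (SN) to 28.6 ± 0.8 (SSC) elsewhere, again with no overlap between STR and another region. Rgs17 was highest in SN, at 115 ± 18.1 CPM at 12 weeks, though overlapping SSC (86.3 ± 15.3). TH (68.5 ± 2.28), PFC (62.4 ± 3.4), STR (51.0 ± 1.31) and HP (35.5 ± 4.91) followed. SN exceeded the mean of the other regions by 0.86 ± 0.15 at 4 weeks (adjusted p = 9.0e-06) and 0.98 ± 0.07 at 12 weeks (3.4e-13).

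Regional differences were the rule for all genes, so the members' counts are set beside the share of all genes called. At 4 weeks, 4 of 10 members were called in PFC (43.0% of all genes tested), 7 in SSC (38.4%), 6 in HP (36.4%), 9 in STR (52.9%), 9 in TH (48.1%) and 8 in SN (59.0%). At 12 weeks these counts were 8 in PFC (57.0%), 8 in SSC (56.4%), 7 in HP (54.4%), 10 in STR (67.3%), 9 in TH (66.9%) and 8 in SN (67.8%). In STR, 7 members were higher and 2 lower at 4 weeks, and 7 higher and 3 lower at 12 weeks, with Rgs16, Rgs7 and, at 12 weeks, Rgs17 the lower ones. The median absolute log2 difference of the members in STR was 1.98 at 4 weeks and 2.09 at 12 weeks, against 0.38 and 0.40 over all genes tested. Without the libraries that stand apart at 4 weeks, Rgs7 was called too in PFC, Rgs14 in SSC and Rgs17 in STR. Rgs7, Rgs8 and Rgs16 were then added in HP, and Rgs16 was lost in SN.

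Levels in WT also differed between ages, which are different animals, so age and cohort cannot be told apart. In PFC, 3 of 10 members were higher at 12 weeks (13.8% of all genes were called): Rgs2 from 46.0 ± 3.97 to 61.8 ± 4.22 CPM (0.43 ± 0.07, adjusted p = 0.00344), Rgs10 (0.43 ± 0.09, 0.00844) and Rgs20 (0.48 ± 0.12, 0.0163). Without the PFC library WT replicate 914 at 4 weeks the count was 5, with Rgs7 and Rgs4 added; Rgs4 was at 1217 CPM in it and at 583 to 645 in the other 4. In SSC, 5 of 10 were called (22.8% of genes). Rgs16 (0.54 ± 0.13), Rgs10 (0.30 ± 0.07) and Rgs2 (0.29 ± 0.06) were higher, and Rgs4 (-0.44 ± 0.14) and Rgs8 (-0.31 ± 0.07) lower. The Rgs4 call was lost on leaving out any of 6 libraries (4-week replicates 142 and 914, 12-week replicates 1, 3, 4 and 5), with adjusted p up to 0.0702. In HP, 2 of 10 were called (12.9%): Rgs2 (0.33 ± 0.06, 0.0035) and Rgs10 (0.32 ± 0.07, 0.0172). Rgs2 and Rgs10 were thus higher at 12 weeks in each of PFC, SSC and HP. Rgs16 in HP, at -1.70 ± 0.63 (0.0929), was called lower on leaving out 4-week replicate 42 (-1.92, 0.0476) or 92 (-1.91, 0.0477).

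In STR, 2 of 10 were called between ages (13.6%): Rgs10 (0.31 ± 0.08, adjusted p = 0.0244) and Rgs7 (0.22 ± 0.07, 0.0395). Rgs7 lost its call on leaving out any 1 library except 12-week replicate 5 (adjusted p up to 0.117), and Rgs10 without 4-week replicate 914 or 12-week replicates 2, 3 or 4 (up to 0.0804). In TH, Rgs20 alone was higher at 12 weeks (0.45 ± 0.09, 0.01; 1 of 10 members, 14.3% of genes). Without the 3 TH libraries that stand apart Rgs10 was called too (0.70, 0.0317). In SN, 1 of 10 was called (4.24%): Rgs16, from 55.6 ± 56.5 CPM (n = 6) to 5.56 ± 2.01, a log2 difference of -3.32 ± 0.81 (0.0409). That call was lost on leaving out any 1 of 8 of the 11 libraries, all but 4-week replicates 92, 913 and 914. Over the 11 fits the value ran from -3.56 to -2.65 and the adjusted p up to 0.118. Without the SN libraries that stand apart, WT replicates 42 and 92, it was -2.32 (0.0312). That fit kept replicates 23 and 142, with 65.8 and 33.8 CPM and thalamic scores of 6.17 and 5.65. The score was 4.15 to 4.48 in the WT libraries at 12 weeks. Replicates 913 and 914, also kept, held 7.02 and 4.23 CPM. Rgs2 was called as well without replicates 42 and 92 (0.28, 0.00854) or without replicate 92 alone (0.35, 0.0115), against 0.31 ± 0.11 (0.129) with all. The 4-week libraries with the highest Rgs16 are those with the highest thalamic scores given above, and the part of that in the difference was not tested.

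Loss of Akap11 changed 3 members in the striatum at 12 weeks. Rgs2 rose and Rgs4 and Rgs9 fell, while 691 of 15622 genes tested, 4.42%, were called. The other 7 members were not called, and the KO and WT libraries did not overlap for 4 members, the 3 named and Rgs10, and for 5.36% of all genes.

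Rgs4 was at 1624, 1677, 1017, 1661 and 1302 CPM in the 5 WT libraries (replicates 1 to 5 in order), at 993, 1333, 1353, 1376 and 1540.3 in HET, and at 837, 756, 954, 819.8 and 688 in KO. Every KO library was below every WT and every HET library. The KO mean of 811 ± 99.3 against 1456 ± 290.0 in WT corresponded to a log2 fold change of -0.86 ± 0.13 (SE, adjusted p = 0.00109), or 55.2% of WT. Leaving out each of the 10 libraries in turn gave -0.96 to -0.80.

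Rgs9 was at 889, 811, 665, 794 and 798 CPM in WT, at 731, 767, 813, 763 and 933 in HET, and at 611, 498, 620.2, 550.5 and 567 in KO. Again all 5 KO libraries lay below all others. The KO mean of 569 ± 49.5 against 791 ± 80.3 gave -0.49 ± 0.08 (adjusted p = 0.00178), 71.3% of WT, and -0.54 to -0.45 with each library left out.

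Rgs2 moved the other way, from 136, 219.7, 231, 197 and 198 CPM in WT to 277, 259.7, 330.4, 351 and 384 in KO. HET libraries, at 203, 261, 276, 206 and 172, lay between and overlapped both. The KO mean of 320.3 ± 51.7 against 196 ± 36.7 gave 0.69 ± 0.15 (adjusted p = 0.0121), 162% of WT, and 0.58 to 0.76 with each library left out, all past the threshold.

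**Figure D3:**
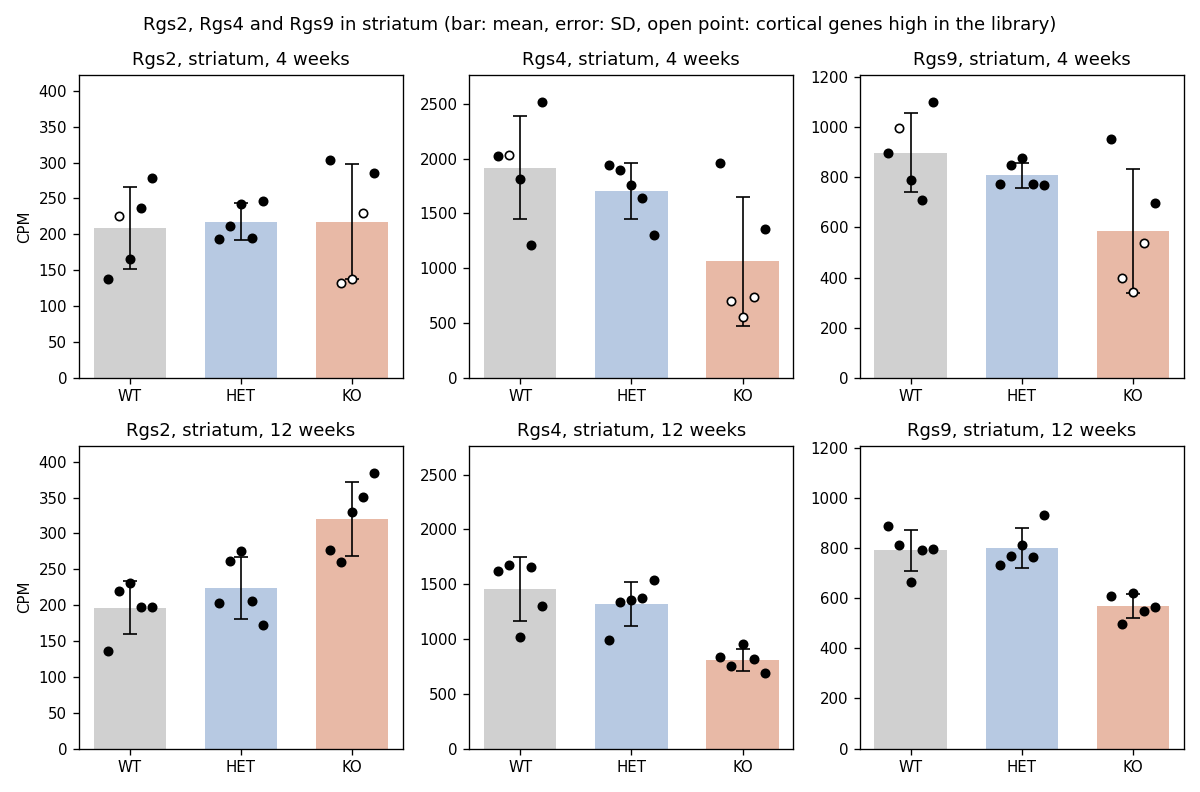
CPM of Rgs2, Rgs4 and Rgs9 in each STR library by genotype (bars: means, error bars: SD, points: libraries) at 4 weeks (top) and 12 weeks (bottom), with open points for libraries in which cortical excitatory genes were high. At 12 weeks the KO points lie above all WT points for Rgs2 and below all WT and HET points for Rgs4 and Rgs9; at 4 weeks the 3 lowest KO points for Rgs4 and Rgs9 are open.

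The remaining members moved less. Rgs10 was at 45.6 to 47.7 CPM in KO and 33.2 to 42.6 in WT, without overlap, yet its difference of 0.24 ± 0.09 did not pass (adjusted p = 0.155). Rgs16 (-0.35 ± 0.22), Rgs17 (-0.20 ± 0.12), Rgs20 (-0.13 ± 0.22), Rgs7 (-0.12 ± 0.06), Rgs8 (-0.08 ± 0.08) and Rgs14 (0.04 ± 0.10) had adjusted p from 0.395 to 0.91. The members' median was -0.12 against 0.01 over all genes, and their median absolute value 0.22 against 0.10. The summed level of the 8 striatal projection neuron genes was 9284 to 12009 CPM in KO and 9129 to 13153 in WT, although Tac1 rose (0.43 ± 0.09) and Pde10a fell (-0.43 ± 0.11) within that list. The 7 cortical excitatory genes summed to 2.03 to 9.11 CPM in KO and 2.59 to 6.58 in WT, and 0 of them were at 0 in a whole group. The 7 oligodendrocyte genes summed to 5586 to 8532 CPM in KO and 4893 to 6503 in WT. Of 7 oligodendrocyte, 7 astrocyte, 7 microglia and 6 vascular genes, 0 were called. Of the 4 hippocampal CA2 genes, a list that does not hold Rgs14, 1 was called: Amigo2 rose (0.58 ± 0.09, adjusted p = 0.00112). The list's median was -0.21 and its lowest value -0.41. Its score in WT at 12 weeks was 4.35 to 4.54 in STR, 4.49 to 4.93 in HP and 5.42 to 6.02 in TH. The list is thus not particular to CA2 in these data. The part of cell types in the results was not tested. In bulk tissue, fewer cells of a type and less RNA per cell cannot be told apart.

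With 1 copy of Akap11 lost, no member was called in the striatum. In HET against WT at 12 weeks 0 of 10 were called with edgeR, as was 0.00640% of all genes (Akap11 itself), with 0 members at an unadjusted p under 0.05 and 0 by DESeq2. Rgs4 stood at 1319 ± 200.0 CPM in HET (-0.14 ± 0.13), Rgs9 at 801 ± 79.4 (0.02 ± 0.08) and Rgs2 at 224 ± 43.4 (0.19 ± 0.15), each with adjusted p = 1. Against HET, KO was lower for Rgs4 (-0.71 ± 0.13, adjusted p = 0.00439) and Rgs9 (-0.51 ± 0.08, 0.0013), 2 of 10 members where 4.79% of genes were called. Rgs2 (0.51 ± 0.15, 0.0608) did not pass there, though it did with DESeq2 (0.0108) and with only those 2 genotypes fitted (0.0443). KO against WT and KO against HET share the KO libraries.

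At 4 weeks 0 of 10 members were called in KO against WT striatum with edgeR, where 3.35% of genes were called, 4 members and 17.9% of all genes had an unadjusted p under 0.05, and DESeq2 called 0. Rgs4 was at 2021, 2037, 1809, 1207 and 2513 CPM in WT (replicates 42, 92, 142, 913 and 914) and at 1957, 697, 555, 739.8 and 1358 in KO (replicates 12, 51, 161, 163 and 932). The log2 fold change of -0.85 ± 0.29 was as large as at 12 weeks but had an adjusted p of 0.127. Rgs9 was at 897, 998, 788, 709 and 1099.7 CPM in WT and at 952, 397, 343, 538 and 699.7 in KO (-0.62 ± 0.22, 0.136). Rgs2 was at 138, 225, 166, 236 and 279 in WT and at 303, 132, 138, 229.7 and 286 in KO (0.06 ± 0.23, 0.936). KO replicate 12 was within the WT range for Rgs4 and Rgs9, replicate 932 was within it for Rgs4 and just below it for Rgs9, and replicates 51, 161 and 163 were below all WT libraries for both.

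Those 3 KO libraries also carried cortical genes. Their score over 7 cortical and hippocampal excitatory neuron genes was 5.75, 6.26 and 5.20, against 0.44 and 0.53 in KO replicates 12 and 932. In WT it was 5.10 in replicate 92 and 0.46 to 1.47 in the other 4, and in HET it was 0.47 to 2.93. The summed level of those genes ranged from 4.12 to 1554 CPM in KO, from 4.35 to 118 in HET and from 3.79 to 837 in WT, and 0 of the 7 were at 0 in a whole group. The KO striatal score was 9.04, 8.91 and 9.49 in the 3 libraries and 10.51 and 10.03 in the other 2. WT replicate 92, with a like cortical score, had 2037 CPM of Rgs4 and 998 of Rgs9. Without these 4 libraries, which leaves 2 KO and 4 WT, Rgs4 was at -0.20 (adjusted p = 0.74) and Rgs9 at -0.09 (0.828). Rgs2 was then at 0.51 (0.255), and both remaining KO libraries lay above the remaining WT libraries for it. With the cortical score as a covariate they were at -0.69 (0.102) and -0.49 (0.169). Leaving out KO replicate 12 instead gave -1.19 (0.0115) and -0.86 (0.012), which are called. So does leaving out the 16 libraries of 4 weeks with few whole-number counts, of which 3 are in these groups (KO 12, WT 92 and WT 914): -1.01 (0.0392) and -0.70 (0.0443).

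**Figure D4:**
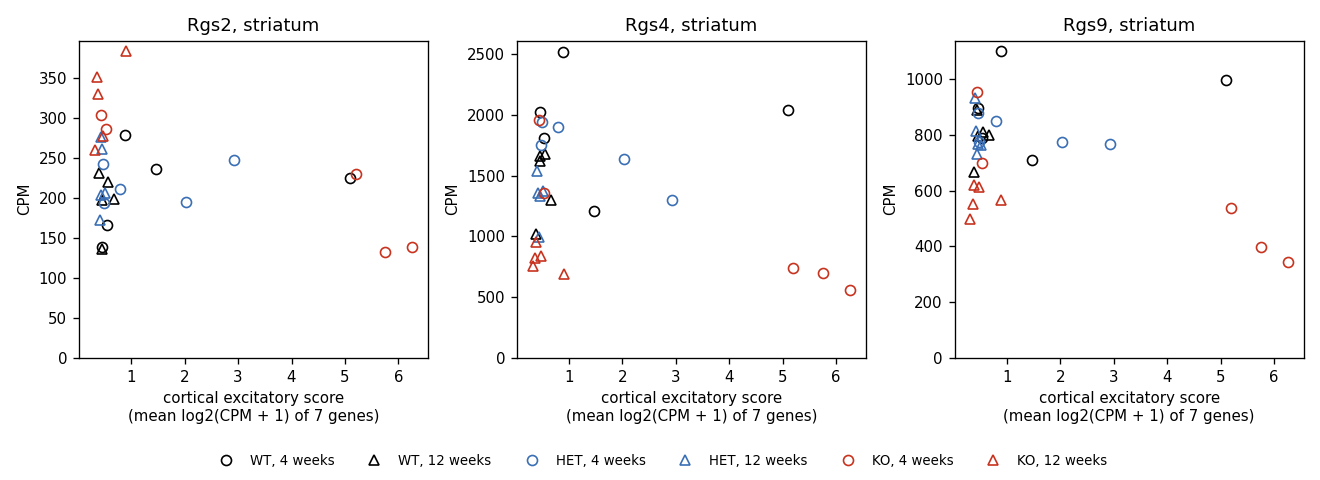
CPM of Rgs2, Rgs4 and Rgs9 in each STR library against its cortical excitatory score, the mean log2(CPM + 1) of 7 genes; black is WT, blue HET, red KO, circles 4 weeks and triangles 12 weeks. All 12-week libraries have scores under 1, and the KO triangles lie apart from the WT triangles. Of the 5 KO circles, 3 lie at scores of 5.20 to 6.26 and have the lowest Rgs4 and Rgs9 of the circles. The part of the cortical genes in these levels was not tested.

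In HET against WT striatum at 4 weeks 0 of 10 members were called (0.00648% of genes), with 0 at an unadjusted p under 0.05 and 0 by DESeq2, and the members' values ran from -0.16 to 0.08. In KO against HET 0 of 10 were called with edgeR (3.88% of genes) and 0 by DESeq2, and 2 members and 20.1% of genes had an unadjusted p under 0.05. Rgs4 and Rgs9 were called on leaving out KO replicate 12 (-1.03, adjusted p = 0.0208, and -0.72, 0.0243). Without the libraries that stand apart they were at -0.05 (0.94) and 0.02 (0.968). The change in the KO effect from 4 to 12 weeks was tested as an interaction in each region. In STR it called 0 of 10 members and 0% of all genes, with 3 members and 6.82% of genes at an unadjusted p under 0.05 and 0 by DESeq2. It was -0.01 ± 0.33 for Rgs4, 0.12 ± 0.24 for Rgs9 and 0.63 ± 0.29 for Rgs2 (adjusted p from 0.689 to 0.998), so a difference between the ages was not shown for these genes. Without the 4 libraries that stand apart at 4 weeks it was -0.67 (0.469) for Rgs4, -0.40 (0.477) for Rgs9 and 0.17 (0.855) for Rgs2. PFC, SSC, HP, TH and SN likewise had 0 members and 0% of genes called, with 0 members at an unadjusted p under 0.05 in all but SSC, where it was 1, and 0 by DESeq2.

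Whether the striatal effect exceeded that elsewhere was tested against the mean of the other 5 regions. At 12 weeks the KO effect in STR differed for Rgs2 (0.65 ± 0.10, adjusted p = 1.1e-05) and Rgs4 (-0.99 ± 0.13, 5.4e-07), 2 of 10 members where 3.34% of genes were called. With 1 STR WT or KO library left out the values stayed between 0.55 and 0.72 and between -1.10 and -0.94, all called. The difference for Rgs9 was -0.50 ± 0.25 (0.39). Rgs9 is weak outside STR, where its KO effects at 12 weeks had SE of 0.11 to 0.56. Rgs10 differed by 0.28 ± 0.10 (0.112) and was called with limma-voom and a random replicate block (0.30, 0.0113). At 4 weeks 0 of 10 members were called with edgeR (2.34% of genes) and 0 by DESeq2, and 0 had an unadjusted p under 0.05. Rgs4 was at -0.84 ± 0.48 (0.496), and at -0.1 (0.922) without the libraries that stand apart. Rgs2 was then at 0.47 (0.0918) and Rgs20 at 0.45 (0.102).

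**Figure D5:**
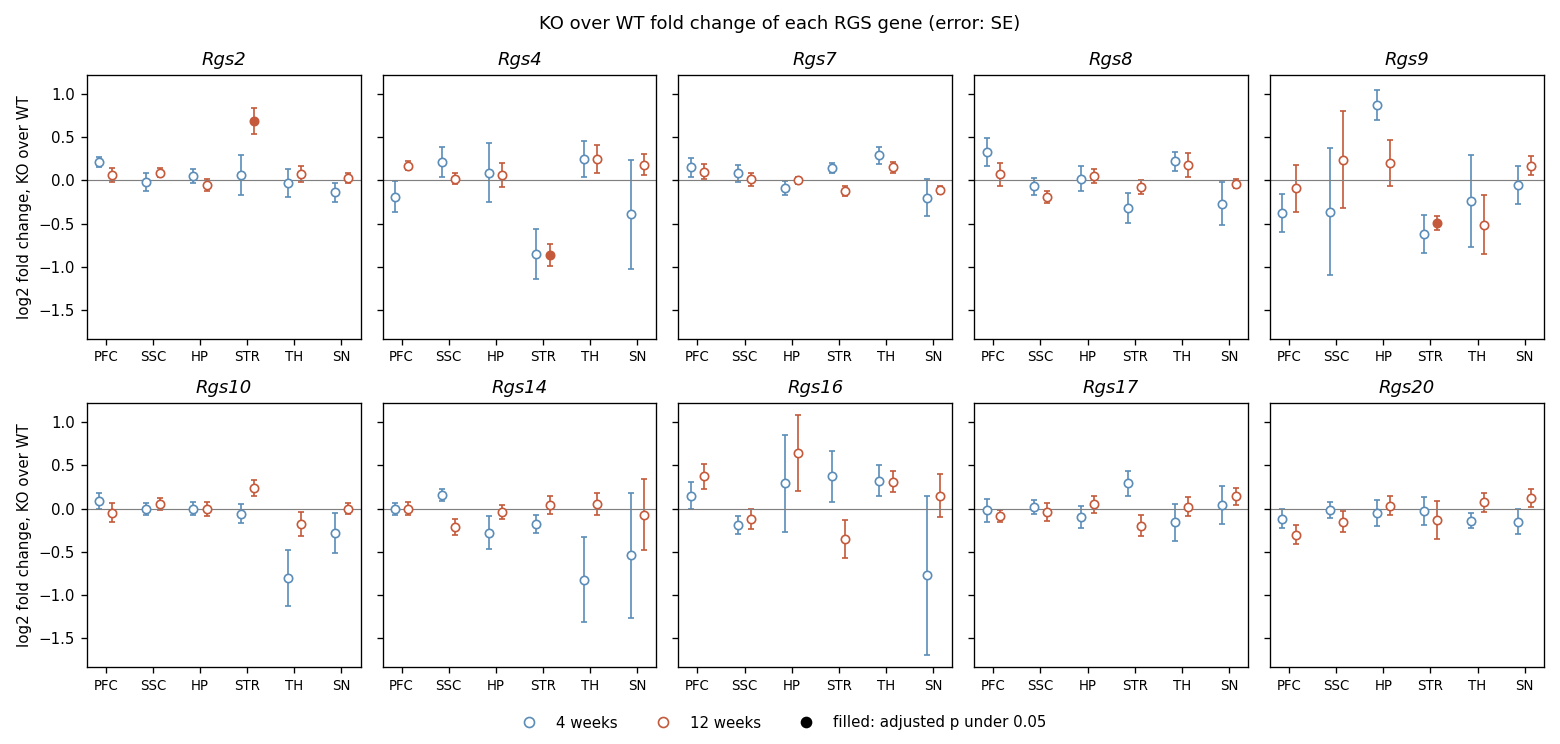
Log2 fold change of KO over WT (points; error bars are SE) for each member in each region at 4 weeks (blue) and 12 weeks (red), with filled points for an adjusted p under 0.05. The 3 filled points are Rgs2, Rgs4 and Rgs9 in STR at 12 weeks; the error bar of Rgs16 in SN at 4 weeks is wide, with an SE of 0.92.

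Outside the striatum KO against WT called 0 of 10 members in each region and age with edgeR. At 4 weeks this was set against 0.0125% of all genes in PFC, 0.0564% in SSC, 0.00609% in HP, 0.0128% in TH and 0.00617% in SN. At 12 weeks the shares were 0.0123% in PFC, 0.0252% in SSC, 0.00608% in HP, 0.00640% in TH and 0.0364% in SN. Members with an unadjusted p under 0.05 numbered 1, 1, 1, 2 and 0 in these regions at 4 weeks and 3, 2, 0, 2 and 0 at 12 weeks. Over all genes that share ran from 2.91% (HP at 12 weeks) to 15.1% (PFC at 4 weeks). DESeq2 called 0 in all of them except HP at 4 weeks, where it called Rgs9. Of the 100 member values outside STR, 7 exceeded 0.5 in size. They were Rgs9 in HP at 4 weeks, Rgs10 and Rgs14 in TH at 4 weeks, Rgs14 and Rgs16 in SN at 4 weeks, Rgs16 in HP at 12 weeks and Rgs9 in TH at 12 weeks.

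The KO and WT libraries did not overlap for Rgs4 in PFC at 12 weeks (0.17 ± 0.05, adjusted p = 0.848), Rgs2 in SSC at 12 weeks (0.09 ± 0.05, 1) and Rgs9 in HP at 4 weeks. The shares of all genes without such overlap in these comparisons were 0.840%, 0.963% and 0.597%.

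Hippocampal Rgs9 at 4 weeks had the largest of these differences. Its 5 KO libraries held 21.2, 25.6, 15.4, 14.7 and 21.9 CPM and the 6 WT libraries 7.47, 9.64, 10.6, 13.6, 9.49 and 14.4, with no overlap. The log2 fold change was 0.87 ± 0.17, with an adjusted p of 0.527 in edgeR and 0.00202 in DESeq2 (0.88). The striatal scores of those KO libraries were, in the same order, 4.53, 4.91, 3.98, 3.33 and 4.5. Those of the WT libraries were 3.13, 3.18, 3.04, 3.35, 3.29 and 4.00. In each genotype the library with the highest Rgs9 also had the highest striatal score. The thalamic score was 5.85 to 6.51 in KO and 3.95 to 6.99 in WT. The part of striatal genes in this difference was not tested. At 12 weeks the same contrast was 0.20 ± 0.27 (0.998). In TH at 4 weeks Rgs10 (-0.80 ± 0.32, 0.301) and Rgs14 (-0.82 ± 0.49, 0.461) had negative values. The highest WT levels were those of replicates 913 (12.6 CPM of Rgs10 and 53.6 of Rgs14) and 914 (19.7 and 11.8), the TH libraries with the lowest thalamic scores. Without the 3 TH libraries that stand apart Rgs10 was at -0.19 (0.833) and Rgs14 at 0.11 (0.92). In SN at 4 weeks KO replicate 91, with a thalamic score of 7.49, held 136 CPM of Rgs16 and 499 of Rgs4, against 4.99 to 11.3 and 57.9 to 82.6 in the other 4. With all libraries Rgs16 was at -0.77 ± 0.92 (0.798), Rgs14 at -0.54 ± 0.72 (0.824) and Rgs4 at -0.39 ± 0.63 (0.865). Without the 4 SN libraries that stand apart they were at -1.89 (0.487), -1.01 (0.676) and -0.48 (0.464). That fit kept WT replicates 23 and 142, with 65.8 and 33.8 CPM of Rgs16 and thalamic scores of 6.17 and 5.65.

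HET against WT also called 0 of 10 members in each of these regions with edgeR. The shares of all genes at 4 weeks were 0.00626% in PFC, 0.00627% in SSC, 0% in HP, 0.00639% in TH and 0% in SN. At 12 weeks they were 0.00613% in PFC, 0.00629% in SSC, 0.00608% in HP, 0.00640% in TH and 0.00606% in SN. Unadjusted p under 0.05 was reached by 1, 1, 0, 6 and 2 members at 4 weeks and by 0, 2, 1, 2 and 1 at 12 weeks. Over all genes it was reached by 16.3% in TH at 4 weeks and by 1.65% to 9.36% in the other sets. DESeq2 called 0 except in TH at 4 weeks, where it called Rgs7 (0.38, adjusted p = 0.0334), Rgs8 (0.38, 0.0367) and Rgs16 (0.56, 0.048). There the WT group holds the libraries with low thalamic scores, and Rgs16 was at 413 ± 42.5 CPM in HET against 280.3 ± 91.2 in WT. In edgeR Rgs16 was at 0.54 ± 0.18 (0.217), and at 0.25 (0.894) without the TH libraries that stand apart. In SN at 4 weeks Rgs16 was -3.07 ± 0.93 (0.548). The HET libraries were at 3.75 to 10.1 CPM, with thalamic scores of 4.15 to 4.47, against the WT values given above. The WT libraries include the one whose Akap11 matched no genotype. Without the SN libraries that stand apart Rgs16 was at -2.03 (0.579), and Rgs4 went from -1.45 ± 0.61 (0.548) to -0.25 (0.743). That fit kept WT replicates 23 and 142, with 65.8 and 33.8 CPM of Rgs16. The libraries did not overlap for Rgs7 in TH at 4 weeks (0.36 ± 0.10, 0.209, and 0.17, 0.894 without the libraries that stand apart) and for Rgs2 in HP at 12 weeks (-0.18 ± 0.07, 1), where 0.965% and 0.420% of all genes did not overlap. In SSC Rgs9 was at 1.90 ± 0.70 (0.789) at 4 weeks and 1.35 ± 0.56 (1) at 12 weeks, through the 3 HET libraries with high striatal scores described above. Of the 120 HET values, 11 exceeded 0.5 in size.

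Other genes of the pathway gave a background to the striatal change. At 12 weeks, of 11 other RGS genes 7 were tested and 1 rose, Rgs6 of the R7 subfamily (0.32 ± 0.09, adjusted p = 0.0452). Of 5 partners of the R7 proteins 4 were tested and 0 called, and of 13 G alpha subunits 0 of 13. Of 17 receptors with striatal roles 16 were tested: the adenosine A1 receptor gene Adora1 fell (-0.94 ± 0.08, 4.5e-06) and the serotonin receptor gene Htr2c rose (0.54 ± 0.10, 0.00527). Of 14 effectors 2 rose, the calmodulin-stimulated adenylyl cyclase gene Adcy1 (0.63 ± 0.10, 0.00164) and the GIRK subunit gene Kcnj9 (0.29 ± 0.08, 0.0438), and 0 fell. Of 12 activity-regulated early genes Egr2 fell (-2.99 ± 0.45, 0.000975), and the list's median was 0.31, against 0.01 over all genes tested. The medians of the other lists were 0.15 for other RGS genes, -0.09 for R7 partners, 0.05 for G alpha subunits, -0.13 for receptors and -0.08 for effectors.

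At 4 weeks, in the presence of the cortical genes described above, Rgs6 (0.62 ± 0.13, adjusted p = 0.0157) and Adcy1 (0.80 ± 0.14, 0.00541) were again higher in KO. Egr2 (-3.53 ± 0.39, 8.5e-05), Egr1 (-0.89 ± 0.23, 0.0463) and Plcb3 (-0.40 ± 0.10, 0.0398) were lower. Of the R7 partners, G alpha subunits and receptors 0 were called. List medians were 0.61 for effectors, -0.35 for early genes and -0.33 for receptors, against 0 over all genes. Among markers of other cells, 1 of 7 astrocyte genes was called lower, Aqp4 (-0.58 ± 0.12, 0.0139). So were 2 of 7 microglia genes, C1qa (-0.35 ± 0.09, 0.0433) and C1qb (-0.30 ± 0.07, 0.0298). The list medians were -0.13 for astrocytes (-0.58 to 0.19) and -0.18 for microglia (-0.35 to -0.06). The 7 cortical excitatory genes themselves had log2 values of 1.95 to 2.62, with 0 called.

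Across the 36 group means of log2(CPM + 1) the members fell into related patterns. These points share regions, ages and libraries, so the correlations are descriptions. Rgs9 followed Rgs2 (Pearson r = 0.93) and Rgs20 (0.85), and Rgs2 followed Rgs20 (0.88). Rgs14 and Rgs17 ran opposite (-0.84), as did Rgs10 and Rgs16 (-0.80) and Rgs7 and Rgs10 (-0.78). Over the 14088 genes with a mean of at least 1 CPM, the gene most like each member was Galnt13 for Rgs2 (0.971), Cyp46a1 for Rgs4 (0.97), Kcnj9 for Rgs7 (0.96), Prkch for Rgs8 (0.951) and Gpr6 for Rgs9 (0.984). It was Fgf11 for Rgs10 (0.95), Dbn1 for Rgs14 (0.986), Atp2a1 for Rgs16 (0.983), Nat9 for Rgs17 (0.925) and Osbpl8 for Rgs20 (0.977). The next in order were Rxrg and Arhgdib for Rgs2 and Dach1 and Bcr for Rgs9. Gpr6 encodes an orphan receptor of indirect-pathway striatal neurons, and Cyp46a1 the enzyme that makes 24-hydroxycholesterol in neurons.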

How the data were processed

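The authors deposited expected counts (estimates, of which 77.9% of those above 0 were not whole) in 1 table of 28338 gene symbols by 186 libraries. Per the labels' protocols, an RNeasy Mini kit was used for RNA and TruSeq Stranded mRNA for libraries. Salmon and mm10 are named in the submitters' processing notes; the annotation and the strand setting were not given in the sources used here. All 10 members passed the filter on low counts in every comparison. The members, gene lists and tests were chosen with earlier results of these data known. The table held 0 columns without a sample. The 390 pairs of libraries within a group differed beyond sampling noise (lowest chi-square per degree of freedom 8.36).

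Expected counts were rounded to whole numbers and fitted with edgeR 4.0.16 in R 4.3.3 (TMM, filterByExpr, estimateDisp, glmQLFit, glmQLFTest): the 3 genotypes of a region and age together, the WT libraries of all regions at an age, the WT libraries of a region at both ages, and interactions. Adjusted p-values are Benjamini-Hochberg over all genes tested, with calls under 0.05, and SE (standard error) was taken as the absolute log2 value over the root of F. CPM are TMM-scaled over all libraries. Scores are means of log2(CPM + 1). Alternatives were DESeq2 1.42.0, its size factors, no filter, a replicate block, limma 3.58.1 with voom, each library left out, the libraries that stand apart left out, and, added after seeing the data, the 16 libraries with at most 5.55% whole numbers (at least 17.3% in the others) as a covariate or left out. The test was tested on simulated data. Named genes are all members, called genes of the pathway lists in striatum and, for likeness, the highest correlations. Depth limits the weakest members, such as Rgs14 in SN.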

Additional observations from a re-analysis of the deposited data

Results flagged for a closer look

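Each member was looked at in each of the 36 groups for a library far from the rest of its group by Dixon's test at the 95% level. Of 360 group and gene pairs, 32 held such a library, 8.89%. The test's rate of about 1 in 20 holds for independent, normally distributed values. CPM are skewed and the pairs share libraries, so the 8.89% cannot be read as an excess over that rate. Values are in CPM, followed by the range of the other libraries.

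Several of these libraries also had marker genes of a neighbouring region. In SN at 4 weeks WT replicate 42 had 639 of Rgs4 (70.3 to 215) and 397 of Rgs8 (194 to 251) with a thalamic score of 7.94, and KO replicate 91 had 499 of Rgs4 (57.9 to 82.6) and 136 of Rgs16 (4.99 to 11.3) with 7.49. In SSC at 12 weeks HET replicate 5 had 51.7 of Rgs9 (4.79 to 6.58) with a striatal score of 6.05. In TH at 4 weeks WT replicate 913 had 53.6 of Rgs14 (4.80 to 11.8) with a cortical score of 5.72. In HP at 4 weeks HET replicate 941 had 604 of Rgs4 (125 to 215) and 23.1 of Rgs20 (11.1 to 14.6). Its cortical and hippocampal score was 7.04, the highest of its group, but that list covers neurons of HP as well. HP KO replicate 51 at 4 weeks had 256 of Rgs4 (175 to 192) and 214 of Rgs8 (174 to 182). Its thalamic score of 6.51 and striatal score of 4.91 were the highest of its group. The part of these markers in these values was not tested.

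In cortex such values were Rgs4 at 1217 in PFC WT replicate 914 at 4 weeks (583 to 645), Rgs16 at 6.48 in replicate 23 (8.79 to 9.27) and Rgs20 at 16 in replicate 142 (22.2 to 24.1) of the same group, Rgs7 at 91.5 in PFC KO replicate 2 at 12 weeks (119.8 to 125), and Rgs8 at 85.0 in SSC KO replicate 5 at 12 weeks (72.2 to 75.2). In HP at 12 weeks KO replicate 4 had 43.1 of Rgs2 (31.6 to 34.6) and KO replicate 3 had 106 of Rgs4 (147 to 160). In STR at 4 weeks Rgs17 was 37.7 in WT replicate 914 (54.7 to 60.3) and Rgs8 was 424 in HET replicate 93 (447 to 455). In STR at 12 weeks Rgs17 was 53.2 in WT replicate 4 (49.8 to 50.6) and Rgs20 was 116 in KO replicate 2 (81.9 to 89.9).

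In TH at 4 weeks the KO group had such values for Rgs14 at 11.7 in replicate 932 (8.12 to 8.95), Rgs17 at 85.4 in replicate 163 (45.4 to 54.9) and Rgs20 at 11.7 in replicate 12 (8.71 to 9.24). In TH at 12 weeks Rgs16 was 374 in WT replicate 2 (262 to 288), Rgs17 was 64.6 in WT replicate 1 (68.8 to 70.2) and Rgs20 was 18.2 in KO replicate 2 (14 to 14.6). In SN at 4 weeks Rgs20 was 7.2 in WT replicate 914 (10.5 to 12.1) and Rgs14 was 5.99 in HET replicate 941 (0.476 to 1.89). Weak Rgs14 in SN at 12 weeks had such a library in each genotype: 2.52 in WT replicate 5 (0.642 to 0.958), 1.67 in HET replicate 2 (0.538 to 0.751) and 1.72 in KO replicate 4 (0.754 to 0.925).

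The KO effect at 12 weeks differed between STR and the mean of the other 5 regions for Rgs2 (0.65) and Rgs4 (-0.99) on the log2 scale, by the interaction tests of the report.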

How the results depend on the processing

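None of the recomputed values reversed a called direction. For KO against WT in STR at 12 weeks, 3 members were called under each alternative but the replicate block, which called 4 by adding Rgs10 (0.25, adjusted p = 0.0438); for KO against HET there, Rgs2 was added by DESeq2, the block and the fit of those 2 genotypes. The block changed no other count of members called between genotypes. The numbers 1 to 5 were treated as shared numbers only, since not every pair of same-numbered 12-week libraries deviated together: their deviations correlated above 0.1 in 12 (PFC), 10 (SSC), 13 (HP), 9 (STR), 12 (TH) and 6 (SN) of 15 pairs, with medians of 0.07 (SN) to 0.26 (PFC) and the lowest r at -0.28. Between WT regions it was 50 of 75 pairs at 12 weeks and 31 of 76 at 4 weeks. In WT regions the block took Rgs16 in SN at 4 weeks to 1.11 (0.0601).

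Counts that moved by over 1.5 times follow; the cause was not tested. With DESeq2 the count was 1 in KO against WT in HP at 4 weeks, 3 in HET against WT in TH at 4 weeks, and 2 for the WT age difference in SN, against 0, 0 and 1. Without the library subset it was 2 for KO against WT and 2 for KO against HET in STR at 4 weeks, and with the subset as a covariate 2 for KO against HET, each against 0. For the WT age difference in STR it was 1 with RLE size factors, 1 with no filter and 1 without the libraries that stand apart, against 2; without those libraries it was 2 in TH and 2 in SN, against 1. With 1 library left out, counts ranged from 0 to 2 in STR at 4 weeks for KO against WT and for KO against HET, and for the WT age difference from 3 to 5 in PFC, 0 to 2 in STR and 0 to 2 in SN.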
